A study of Mus musculus with 12 samples.

Results

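This account concerns 10 genes that license and start DNA replication, measured in mouse liver in severe acute pancreatitis (SAP): Mcm2, Mcm3, Mcm4, Mcm5, Mcm6, Mcm7, Pcna, Cdt1, Cdc6 and Ccnd1. They were taken by symbol from a table of 55487 rows, and each symbol was found. Liver RNA came from wild type Balb/c mice aged 6 weeks, as 6 control libraries (control 3 to 8) and 6 SAP libraries (SAP 10 to 15). The SAP mice received caerulein according to their labels, a peptide that acts like cholecystokinin and overstimulates pancreatic acinar cells. Dose, time after treatment, sex and any vehicle given to controls are not stated in the labels, and the design text speaks of a pair of mouse models without saying which samples belong to which. Whether each library comes from its own animal is not stated, and p-values here rest on library to library spread, which may be technical.

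In G1 the origin recognition complex, Cdc6 and Cdt1 load the ring of Mcm2 to Mcm7 onto DNA, which licenses an origin; the ring later becomes the motor of the replicative helicase. Pcna encodes the sliding clamp that holds DNA polymerases on the template and also serves DNA repair. Ccnd1 encodes cyclin D1, which with Cdk4 or Cdk6 phosphorylates the retinoblastoma protein and so releases E2F factors, activators of many licensing genes. Most hepatocytes of the adult liver are quiescent and enter the cycle after tissue loss or injury.

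Promoter sequences are shown for Mcm6, Mcm5, Mcm7 and Mcm2, helicase subunits whose transcripts fell in SAP, to show where E2F-type letters stand before their starts. RefSeq windows (GRCm38.p6, 250 bases before to 50 after a start) were found for 8 of the 10 genes, as 9 windows, since Mcm7 has a pair of starts; Mcm4 and Ccnd1 had no entry. Each sequence below is the 170 bases before the RefSeq start, 5′ to 3′ on the gene's strand, with matches to TTTCCCGC, TTTGGCGC or TTTCGCGC on either strand in capitals. The Mcm6 stretch is chr1:128359706-128359875 (minus strand), that of Mcm5 is chr8:75109339-75109508 (plus strand), that of the upstream Mcm7 start is chr5:138171884-138172053 (minus strand) and that of Mcm2 is chr6:88898781-88898950 (minus strand).
Mcm6: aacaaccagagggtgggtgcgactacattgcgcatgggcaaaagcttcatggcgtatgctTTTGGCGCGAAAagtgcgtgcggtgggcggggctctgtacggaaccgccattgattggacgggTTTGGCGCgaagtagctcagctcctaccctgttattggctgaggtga
Mcm5: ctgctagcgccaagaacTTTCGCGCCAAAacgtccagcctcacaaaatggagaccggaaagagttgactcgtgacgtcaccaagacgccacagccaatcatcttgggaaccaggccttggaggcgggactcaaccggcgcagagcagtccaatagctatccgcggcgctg
Mcm7: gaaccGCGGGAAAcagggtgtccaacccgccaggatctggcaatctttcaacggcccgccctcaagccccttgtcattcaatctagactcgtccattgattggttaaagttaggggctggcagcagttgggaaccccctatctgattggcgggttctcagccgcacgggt
Mcm2: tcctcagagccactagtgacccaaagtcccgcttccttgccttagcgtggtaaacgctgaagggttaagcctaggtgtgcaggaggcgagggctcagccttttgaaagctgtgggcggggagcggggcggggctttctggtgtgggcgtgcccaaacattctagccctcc

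Mcm6 had 3 matches in its stretch, 2 of them overlapping on opposite strands, and Mcm5 had 2 overlapping matches. The Mcm7 stretch held 1 match and the Mcm2 stretch none. Over the whole windows, 6 of the 8 genes held a match (Mcm3, Mcm5, Mcm6, Mcm7, Cdt1 and Cdc6), and Mcm2 and Pcna held none. Of all 32851 RefSeq windows 1.84% held at least 1 of the 3 motifs: 1.07% held TTTCCCGC, 0.514% TTTGGCGC and 0.323% TTTCGCGC. A match describes letters and is not a measured binding site.

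Transcripts of 5 of the 6 helicase subunits, of Pcna and of Cdt1 were lower in SAP livers. Mcm6 showed the largest difference of the 10 genes, from 2.52 ± 1.37 TPM (SD, n = 6) in controls to 0.392 ± 0.0902 TPM (SD, n = 6) in SAP. TPM, a unit inferred here from the values, scales abundance by transcript length and to a common total, so levels can be compared between genes. Of the 10 genes 9 could be tested, which asked for 6 or more libraries at 1 TPM or above. In limma's test 7 of them fell and 0 rose (also 0 at an unadjusted p under 0.05), at a Benjamini-Hochberg adjusted p under 0.05 over 11335 genes. Mcm4 and Ccnd1 missed that threshold. Of all genes tested, 25% were lower and 19.5% higher. The median log2 difference was -0.55 over the 9 genes and -0.03 over all genes tested. Groups did not overlap, with every SAP library below every control library, for 5 of the 9 (Mcm2, Mcm6, Mcm7, Pcna and Cdt1), against 15.1% of all genes tested.

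A sum of TPM is fixed, and 25 acute-phase genes took 2.48 to 2.98% of it in controls and 20.1 to 34.0% in SAP. When TPM was rescaled without them, the median log2 difference of all genes moved from -0.03 to 0.30. On that scale only Mcm2, Mcm5 and Mcm6 of the 9 were past the threshold, all lower, while 11.1% of genes were lower and 52.5% higher. With the median of all genes subtracted, the rescaled difference was -0.63 for Mcm3, -0.52 for Mcm7 and -0.50 for Cdt1. It was -0.43 for Ccnd1, -0.25 for Mcm4 and -0.22 for Pcna. On the deposited scale the same measure gave -0.55, -0.52, -0.38, -0.42, -0.15 and -0.26, in that order. The nuclear RNA Xist was at 4.59 to 17.1 TPM in 1 control library (control 5) and 4 SAP libraries (all but SAP 10 and SAP 12), against 49.1 to 60.7 TPM in the other 7. Malat1, another nuclear RNA, was low in the same 5, at 2.76 to 8.19 TPM against 26.2 to 40.1 TPM in the other 7. What sets these 5 apart was not tested. In those 7 alone (5 control, 2 SAP) Mcm2, Mcm3 and Mcm6 were past the threshold, all lower, with 16.1% of all genes lower and 18% higher. Depth is unknown, because TPM does not keep it, so no counting error can be given for these low values.

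**Figure D1:**
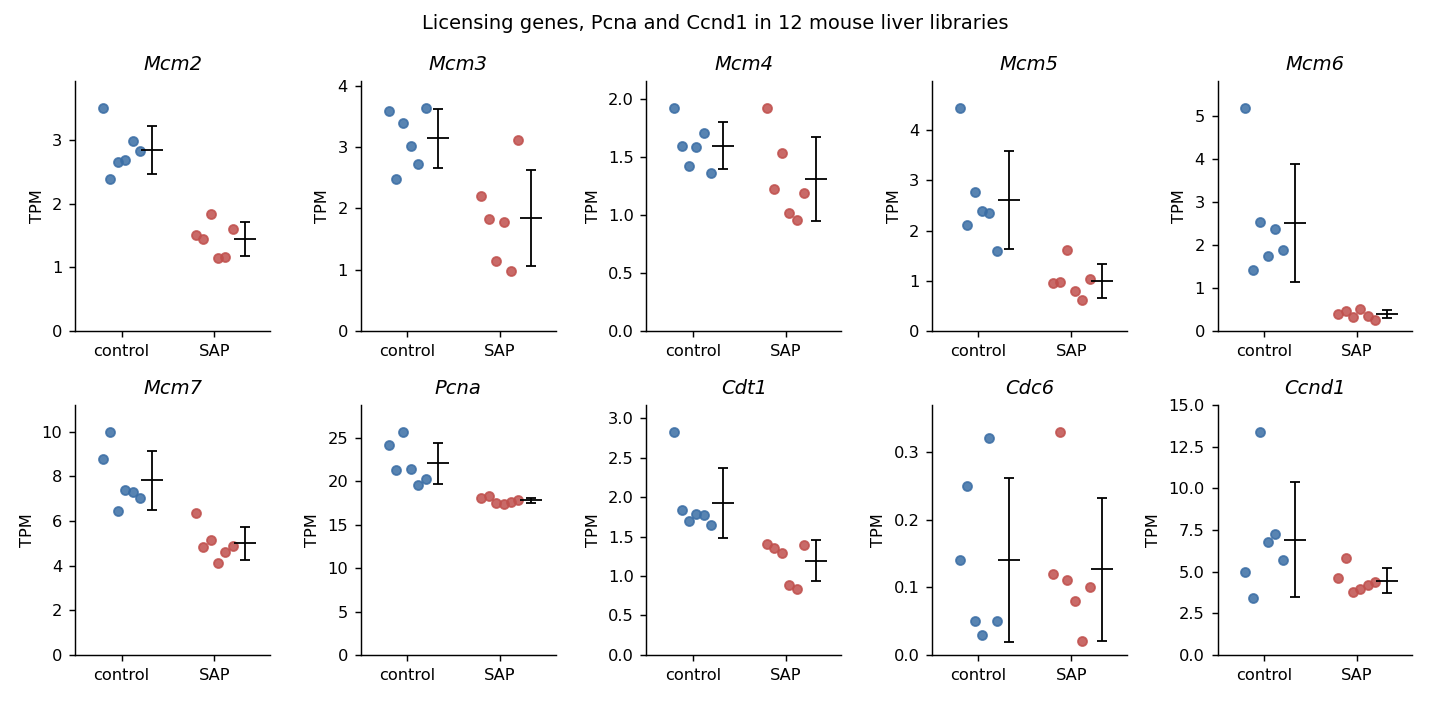
Level in TPM (vertical axes, each from 0) of the 10 genes in 6 control and 6 SAP liver libraries; points are libraries, and bars are the mean ± SD of a group. Mcm6 lies between 0.27 and 0.52 TPM in SAP and between 1.41 and 5.18 TPM in controls, while Cdc6 stays at or below 0.33 TPM in both.

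The subunits of the helicase are taken in turn, starting with Mcm6, which sits between Mcm2 and Mcm4 in the ring. Mcm6 (chr1:128331590-128359664 in GENCODE M21 on GRCm38, as for the other genes) stood at 5.18, 1.41, 2.54, 1.74, 2.36 and 1.88 TPM in controls 3 to 8, and at 0.41, 0.46, 0.34, 0.52, 0.35 and 0.27 TPM in SAP 10 to 15. Control 3 was highest, and every SAP library lay below every control. The control mean was 6.43 times the SAP mean, and the log2(TPM + 1) difference, SAP minus control, was -1.27 ± 0.19 (SE; limma adjusted p = 1.02e-04). Because that scale compresses low values, the difference was -2.30 with a pseudocount of 0.1. No SAP library reached 1 TPM, so Mcm6 entered the test through its control values. Without control 3 the difference was -1.09 (adjusted p = 1.47e-05).

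Mcm5, which with Mcm2 forms the gate through which DNA enters the ring, lies at chr8:75109569-75128439 and stood at 4.44, 2.12, 2.76, 2.39, 2.34 and 1.59 TPM in controls 3 to 8. In SAP 10 to 15 it stood at 0.96, 0.97, 1.61, 0.80, 0.63 and 1.04 TPM. SAP 12 lay just above control 8, and the other SAP libraries lay below all controls. In SAP only SAP 12 and SAP 15 reached 1 TPM, so Mcm5 entered the test through its control values. The log2 difference was -0.83 ± 0.16 (SE; limma adjusted p = 0.00109), and -0.61 (adjusted p = 0.113) in the high Xist libraries alone.

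Mcm2 (chr6:88883474-88898780) was measured at 3.5, 2.39, 2.65, 2.68, 2.98 and 2.83 TPM in controls 3 to 8. Its SAP values were 1.5, 1.45, 1.83, 1.14, 1.16 and 1.6 TPM in SAP 10 to 15. The groups did not overlap, and the log2 difference was -0.65 ± 0.10 (SE; limma adjusted p = 1.23e-04). Mcm2 was past the threshold under every scaling tried, with -0.42 (adjusted p = 0.00174) after rescaling without the acute-phase genes.

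Mcm7 (chr5:138164583-138172422), the subunit whose introns host the microRNAs Mir25, Mir93 and Mir106b, had the highest level of the 6 subunits in every library. It stood at 8.76, 10.01, 6.43, 7.39, 7.30 and 7.01 TPM in controls 3 to 8 and at 6.36, 4.83, 5.17, 4.12, 4.63 and 4.90 TPM in SAP 10 to 15. The groups did not overlap, by a narrow margin between SAP 10 and control 5. The log2 difference was -0.55 ± 0.11 (SE; limma adjusted p = 0.00121). It was not past the threshold after rescaling (-0.22, adjusted p = 0.105) or in the high Xist libraries alone (-0.42, adjusted p = 0.0597). In GENCODE M21, Mcm7 shares 421 bases with Ap4m1 and 64 with Cops6 on the opposite strand. Cops6 was at 104 to 113 TPM in controls and 85.6 to 101 TPM in SAP. Strand handling in the counting is not known, so reads in the shared bases cannot be assigned.

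Mcm3 (chr1:20802968-20820312) is a further ring subunit, next to Mcm5. It stood at 3.59, 2.48, 3.40, 3.01, 2.73 and 3.64 TPM in controls 3 to 8, and at 2.21, 1.83, 1.14, 1.78, 0.98 and 3.12 TPM in SAP 10 to 15. SAP 15 lay within the control range and the other SAP libraries below it. The log2 difference was -0.58 ± 0.16 (SE; limma adjusted p = 0.0105), and -0.33 (adjusted p = 0.0984) after rescaling.

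Mcm4 (chr16:15623897-15637400), whose protein carries much of the regulatory phosphorylation of the ring, was the subunit not past the threshold. It stood at 1.92, 1.59, 1.42, 1.58, 1.70 and 1.36 TPM in controls 3 to 8 and at 1.92, 1.22, 1.53, 1.02, 0.96 and 1.19 TPM in SAP 10 to 15. The groups overlapped, and SAP 10 equalled the highest control. The log2 difference was -0.18 ± 0.11 (SE; limma adjusted p = 0.194), with a 95% interval from -0.41 to 0.05. Without SAP 10 it was -0.25 (adjusted p = 0.0496), with quantile normalization -0.20 (adjusted p = 0.0405), and after rescaling 0.05 (adjusted p = 0.733).

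On the deposited scale the summed level of the 6 subunits differed between the groups, as did the shares of Mcm6 and Mcm4. No sum was taken after rescaling. The summed TPM of Mcm2 to Mcm7 ranged from 18.3 to 27.4 in controls and from 8.71 to 13.4 in SAP. Mcm6 made up 7.05 to 18.9% of that sum in controls and 2.23 to 5.54% in SAP, and it was the lowest of the 6 in each SAP library. In controls Mcm4 was the lowest, except in control 4, where Mcm6 was. Mcm4 itself took 7.01 to 8.76% of the sum in controls and 9.82 to 14.4% in SAP. The ratio of Mcm6 to Mcm4 within a library was 0.887 to 2.70 in controls and 0.214 to 0.510 in SAP. Such a ratio does not depend on how a library is scaled, and its ranges did not overlap. The pair was chosen after their values were seen, as the subunits with the largest and smallest difference. The ratio of Mcm7 to Mcm4 overlapped, at 4.29 to 6.30 in controls and 3.31 to 4.82 in SAP. Mcm7 took 32.0 to 50.1% in controls and 40.4 to 53.2% in SAP, and Mcm2 took 12.0 to 15.5% and 11.2 to 15.8%, so these shares overlapped. Those of Mcm3 (12.4 to 19.9% and 9.81 to 25.7%) and Mcm5 (8.68 to 16.2% and 7.19 to 13.9%) overlapped too.

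**Figure D2:**
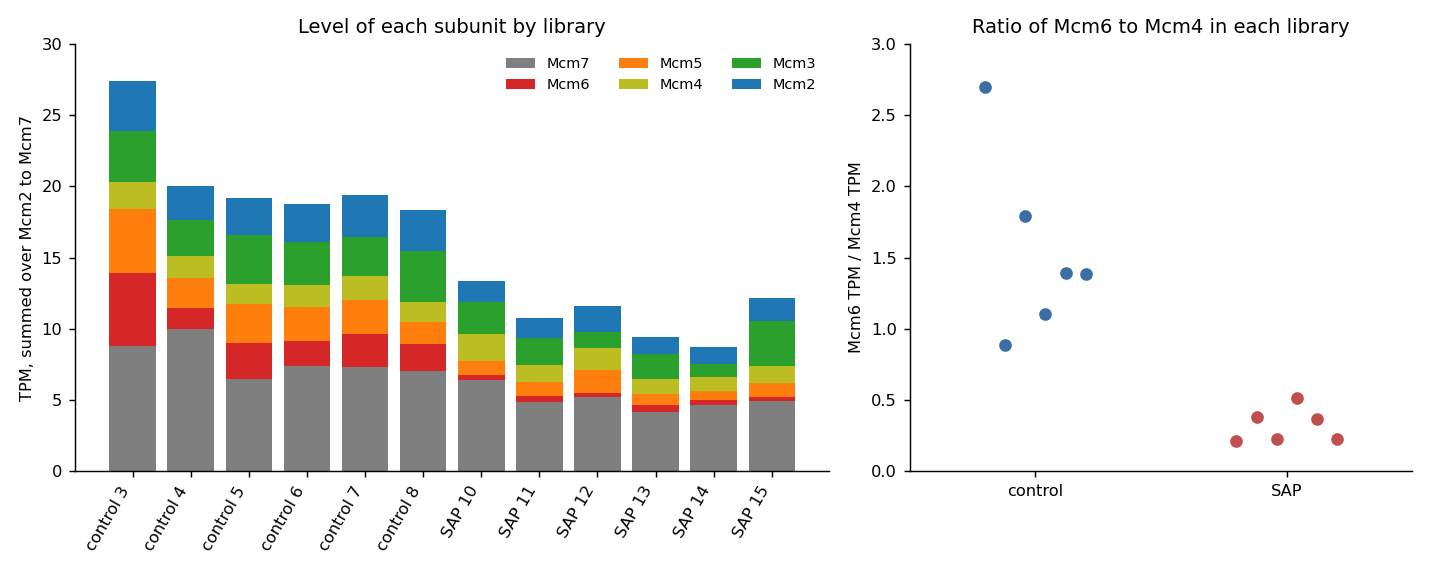
Left, TPM of Mcm2 to Mcm7 stacked for each of 12 libraries; right, Mcm6 TPM divided by Mcm4 TPM, 1 point a library (control at left, SAP at right). The stack ends between 18.3 and 27.4 in controls and between 8.71 and 13.4 in SAP, and the ratio lies at or below 0.510 in SAP and at or above 0.887 in controls.

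The loading factors came next. Cdt1 (chr8:122568015-122573554), which brings the helicase to the origin and is destroyed once replication starts, stood at 2.83, 1.83, 1.70, 1.78, 1.77 and 1.65 TPM in controls 3 to 8. Its SAP values were 1.41, 1.35, 1.29, 0.89, 0.84 and 1.39 TPM in SAP 10 to 15. The groups did not overlap, with control 3 far above the other controls. The log2 difference was -0.41 ± 0.11 (SE; limma adjusted p = 0.0102) and -0.33 without control 3, with limma adjusted p from 0.0111 to 0.0239 as each library was left out. It was not past the threshold after rescaling (-0.20, adjusted p = 0.155), with a term for the low Xist libraries (-0.34, adjusted p = 0.0535) or in the high Xist libraries alone (-0.33, adjusted p = 0.155). In GENCODE M21 a longer gene model, Gm20388, spans all of Cdt1 on the same strand.

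Cdc6 (chr11:98907801-98923940), the ATPase that works with Cdt1, was near 0 in both groups and was not tested. It ranged from 0.03 to 0.32 TPM in controls (median 0.095) and from 0.02 to 0.33 TPM in SAP (median 0.105). With no filter its log2 difference was -0.02 ± 0.08 (SE; limma adjusted p = 0.911), with a 95% interval from -0.18 to 0.15.

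Pcna (chr2:132249162-132253314) was the most abundant of the 10 in every library, and its change was small. It stood at 24.2, 21.3, 25.7, 21.5, 19.6 and 20.3 TPM in controls 3 to 8 and at 18.1, 18.3, 17.6, 17.4, 17.6 and 17.8 TPM in SAP 10 to 15. SAP libraries varied little (SD 0.322, against 2.36 in controls), and all lay below all controls. The log2 difference was -0.29 ± 0.07 (SE; limma adjusted p = 0.00400). After rescaling it turned to 0.08 (adjusted p = 0.393), which is below the shift of 0.30 in the median gene on that scale. In the high Xist libraries alone it was -0.25 (adjusted p = 0.0710). The processed pseudogenes Pcna-ps1 and Pcna-ps2 were listed at 0 in every library, except for Pcna-ps2 at 0.11 TPM in control 3.

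Ccnd1 (chr7:144929931-144939925) stood at 4.98, 3.42, 13.4, 6.79, 7.23 and 5.67 TPM in controls 3 to 8 and at 4.60, 5.83, 3.78, 3.93, 4.20 and 4.37 TPM in SAP 10 to 15. Control 5 was the highest and control 4 the lowest of all 12 libraries, so the SAP range lay inside the control range. The log2 difference of -0.45 ± 0.22 (SE; limma adjusted p = 0.113) had a 95% interval from -0.92 to 0.02. The call turned on single libraries: it was -0.60 (adjusted p = 0.0265) without control 4 and -0.26 (adjusted p = 0.204) without control 5. With a term for the low Xist libraries, of which control 5 is 1, it was -0.70 (adjusted p = 0.0243), but in the high Xist libraries alone it was -0.32 (adjusted p = 0.318). In GENCODE M21 Ccnd1 shares 1771 bases with LTO1 on the opposite strand, a gene at 7.58 to 13.0 TPM in controls and 8.68 to 19.9 TPM in SAP.

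**Figure D3:**
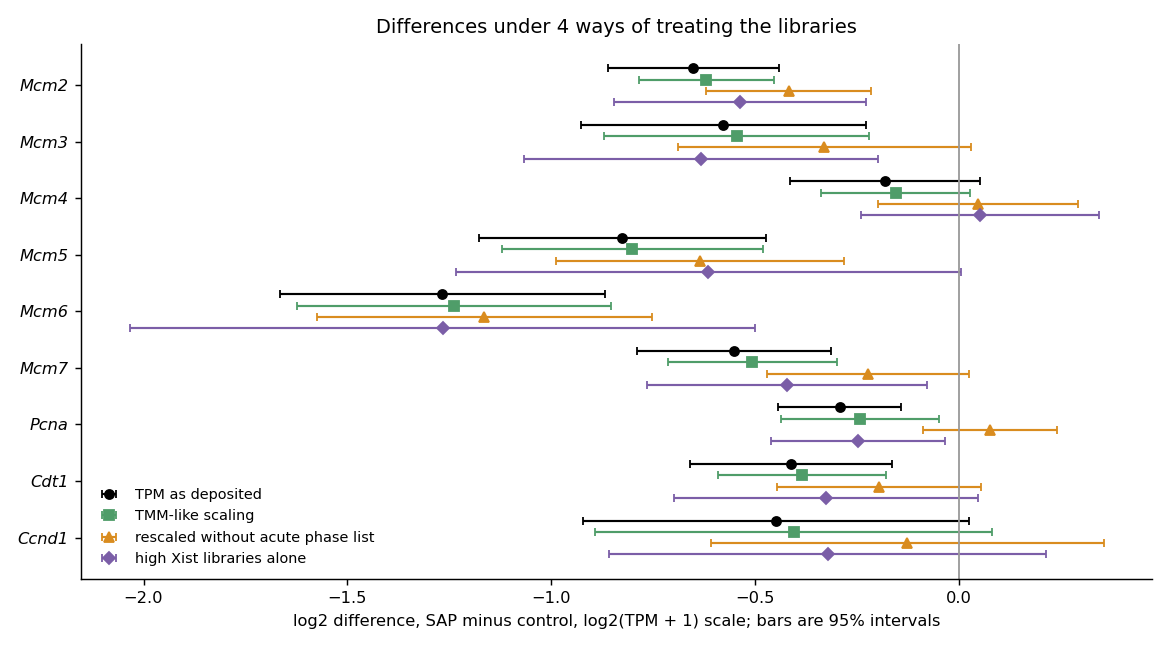
Log2 difference, SAP minus control, on the log2(TPM + 1) scale (horizontal axis) for the 9 tested genes; symbols mark TPM as deposited, TMM-like scaling, rescaling without the acute-phase genes and the 7 high Xist libraries alone, with 95% intervals. Mcm6 stays between -1.27 and -1.16 under the 4 treatments, while Pcna moves from -0.29 to 0.08.

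Ordered by mean TPM, controls ran Pcna, Mcm7, Ccnd1, Mcm3, Mcm2, Mcm5, Mcm6, Cdt1, Mcm4 and Cdc6. In SAP the order was Pcna, Mcm7, Ccnd1, Mcm3, Mcm2, Mcm4, Cdt1, Mcm5, Mcm6 and Cdc6. Neighbours in the order overlapped in range, except Pcna over Mcm7 in both groups, Mcm4 over Cdc6 in controls, and Ccnd1 over Mcm3 and Mcm5 over Mcm6 in SAP.

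Within groups the genes did not move as 1 block. After subtracting group means, Pearson's r over the 12 libraries was 0.80 for Mcm2 with Cdt1, 0.78 for Mcm5 with Cdt1 and 0.70 for Mcm5 with Mcm6. It was -0.02 for Mcm6 with Mcm7 and -0.60 for Mcm7 with Ccnd1. These r describe libraries that share their scaling. Control 3 was the highest control for Mcm2, Mcm5, Mcm6 and Cdt1. Control 4 had the highest Mcm7 and the lowest Ccnd1 of the controls, and control 5 the reverse. No r was taken without these libraries, so how far each r rests on them was not tested. Ccnd1 had r of at most 0.49 with each of the other tested genes on this measure.

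The 5 genes whose levels most resembled the standardised mean of Mcm2 to Mcm7 over the 12 libraries were Serinc5 (r = 0.97), Umad1 (0.96), Man2b1 (0.96), Serac1 (0.96) and Rbbp7 (0.96). Within groups their r ranged from 0.74 to 0.83. Rbbp7 encodes a histone-binding chromatin protein and went from 38.1 ± 1.17 to 32.0 ± 2.07 TPM (SD, n = 6 each), a log2 difference of -0.25 that turned to 0.13 after rescaling. For Ccnd1 the 5 were Seh1l (r = 0.84), Gnai3 (0.84), Dld (0.83), Fam104a (0.83) and Ube2e1 (0.83), a looser likeness.

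Other genes of the replication pathway were read from 8 lists with 125 genes, of which 82 were tested. Of these 12 were higher, 23 lower and 47 not past the threshold (limma, adjusted over all genes), with a median log2 difference of -0.10, beside -0.03 over all genes. The shares, 28% lower and 14.6% higher, lay near the 25% and 19.5% of all genes. After rescaling, when more genes pass the filter, 44 were higher and 7 lower, beside 52.5% of all genes higher and 11.1% lower on that scale. The counts of the 8 lists together are therefore no result about the pathway.

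Nucleotide supply had the highest share of tested genes lower among the 8 lists, 83.3%, beside 25% of all genes. Of 6 tested genes 5 fell, 0 rose (0 at an unadjusted p under 0.05) while Rrm1 stayed short of the threshold, with a median of -0.44. Tk1, the S-phase thymidine kinase, stood at 43.4, 32.5, 20.6, 24.5, 36.2 and 30.4 TPM in controls 3 to 8 and at 5.74, 6.50, 14.2, 7.57, 1.51 and 8.33 TPM in SAP 10 to 15. The groups did not overlap, and the log2 difference was -2.10 ± 0.33 (SE; limma adjusted p = 2.06e-04). Dut, which clears dUTP, fell from 12.4 ± 0.734 to 5.98 ± 1.44 TPM (SD, n = 6 each; -0.96). Tk1 (-1.78) and Dut (-0.63) were also lower after rescaling, whereas Tyms and Dck were not past the threshold there. Rrm1, the large subunit of ribonucleotide reductase, had a log2 difference of -0.16 (adjusted p = 0.245).

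The list of origin recognition, licensing control and helicase activation was split. It had 13 tested genes, with 1 higher, 5 lower and 7 uncalled (median -0.17), and 8 untested genes. The shares, 38.5% lower and 7.69% higher, stand beside 25% and 19.5% of all genes. After rescaling 2 genes of the list were lower and 5 higher, beside 11.1% and 52.5% of all genes on that scale. The subunits of GINS, a helicase cofactor with 4 subunits, went apart. Gins1 fell from 4.52 ± 0.830 to 1.98 ± 0.560 TPM (SD, n = 6 each; log2 difference -0.90, limma adjusted p = 1.46e-04). Gins2, with all SAP libraries but not all controls at 1 TPM or above, rose from 1.09 ± 0.270 to 2.32 ± 0.370 TPM (SD, n = 6 each; 0.67, adjusted p = 2.39e-04). Both directions held after rescaling (-0.64 and 0.96), while Gins4 was at 0.07 (adjusted p = 0.495, limma) and, after rescaling, at 0.43 (adjusted p = 2.24e-04). Orc5, Gmnn, Mcm10 and Orc3, named here after their values were seen, also fell; after rescaling, Orc5 alone of these stayed past the threshold (-0.42). Gmnn, the geminin gene whose product inhibits Cdt1, averaged 8.49 TPM in controls and 5.76 TPM in SAP, above Cdt1 in both.

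At the replication fork 22 genes were tested, 4 higher, 6 lower and 12 uncalled (median -0.05). The shares, 27.3% lower and 18.2% higher, are near those of all genes, 25% and 19.5%. After rescaling 2 were lower and 11 higher, beside 11.1% and 52.5% of all genes on that scale. Rpa1, the large subunit of the single-strand binding protein, fell from 18.8 ± 2.35 to 10.3 ± 0.964 TPM (SD, n = 6 each; log2 difference -0.80, limma adjusted p = 1.17e-05). Pole3, a histone-fold subunit of polymerase epsilon, rose from 9.50 ± 0.725 to 15.3 ± 1.56 TPM (SD, n = 6 each; 0.63, adjusted p = 2.64e-05). Rpa1 (-0.45) and Pole3 (0.999) kept these directions after rescaling. Among clamp loader genes, Rfc2 rose (0.35), Rfc4 (-0.44) and Rfc5 (-0.33) fell, and Rfc1 (0.05) and Rfc3 (0.03) were uncalled. After rescaling Rfc1 (0.38), Rfc2 (0.72) and Rfc3 (0.36) were higher, and Rfc4 (-0.16) and Rfc5 (-0.03) were not past the threshold.

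Of 11 tested cyclins, kinases and inhibitors 3 fell, 0 rose (0 at an unadjusted p under 0.05) and 8 were uncalled (median 0.06). The 27.3% lower is near the 25% of all genes. After rescaling 1 gene was lower and 7 higher, beside 11.1% and 52.5% of all genes on that scale. The kinase inhibitor gene Cdkn1c fell by 0.71 (adjusted p = 0.00478 in limma; 0.109 in the high Xist libraries alone). Cdk2 fell by 0.34 (adjusted p = 0.0237), a call lost after rescaling (-0.03), with no filter, in both fits that used the Xist split, and without control 4, control 7 or SAP 13 (adjusted p at most 0.0546). Ccnd3, the most abundant D cyclin here, averaged 23.4 ± 1.97 TPM in controls and 25.02 ± 3.07 TPM in SAP (SD, n = 6 each), with a log2 difference of 0.09 (limma adjusted p = 0.453), and 0.46 (adjusted p = 9.28e-05) after rescaling. Ccne1, below the filter and named after its values were seen, was at 0.17 to 0.79 TPM in controls and 0.94 to 2.41 TPM in SAP, without overlap.

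In the E2F and retinoblastoma family 10 genes were tested, 1 higher, 2 lower and 7 uncalled (median -0.00). The shares, 10% higher and 20% lower, stand beside 19.5% and 25% of all genes. After rescaling 5 were higher and 0 lower, beside 52.5% and 11.1% of all genes on that scale. E2f8, a repressor among the E2F factors, rose from 0.915 ± 0.266 to 2.72 ± 1.72 TPM (SD, n = 6 each; log2 difference 0.85, limma adjusted p = 0.0107; 1.14 after rescaling). Its range was 0.52 to 1.3 TPM in controls and 1.0 to 5.78 TPM in SAP, so E2f8 entered the test through its SAP values. The pocket protein gene Rbl2 fell by 0.58 (adjusted p = 0.00389), and by 0.25 (adjusted p = 0.0889) after rescaling. E2f1 was below the filter, at 0.75 to 1.38 TPM in controls and 0.36 to 0.74 TPM in SAP.

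For the turnover of Cdt1 and cyclin D1, 7 genes were tested, 1 higher, 0 lower (1, Ambra1, at an unadjusted p under 0.05, limma) and 6 uncalled (median 0.07). The shares, 14.3% higher and 0% lower, stand beside 19.5% and 25% of all genes. After rescaling, with more genes passing the filter, 8 of the 10 listed were higher and 0 lower. On that scale 52.5% of all genes were higher and 11.1% lower. The ubiquitin ligase scaffold gene Cul1 rose from 17.6 ± 1.73 to 26.3 ± 3.49 TPM (SD, n = 6 each; log2 difference 0.55, limma adjusted p = 3.70e-04). Ambra1, a receptor for D cyclins, was at -0.16 (adjusted p = 0.0645), past the threshold without SAP 11 (adjusted p = 0.0434), and at 0.18 (adjusted p = 0.0317) after rescaling.

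Among 10 tested genes of growth signals upstream of cyclin D1, 5 were higher, 2 lower and 3 uncalled (median 0.29). The shares, 50% higher and 20% lower, stand beside 19.5% and 25% of all genes. After rescaling 7 were higher and 0 lower, beside 52.5% and 11.1% of all genes on that scale. Egfr, the epidermal growth factor receptor, stood at 12.3 to 17.8 TPM in controls and 33.5 to 48.4 TPM in SAP, a log2 difference of 1.45 ± 0.11 (SE; limma adjusted p = 3.33e-07). Stat3, which carries interleukin-6 signals in hepatocytes, rose from 39.7 ± 3.11 to 63.7 ± 9.42 TPM (SD, n = 6 each; 0.66). Hgf (0.50), its receptor gene Met (0.51) and Myc (0.40), named after their values were seen, rose too, and Jun (-0.60) and Erbb3 (-0.65) fell, but not after rescaling. Myc, at 0.61 to 1.02 TPM in controls and 1.03 to 1.87 TPM in SAP, entered the test through its SAP values.

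Most mitotic transcripts were low in both groups. Of 16 genes 3 reached the filter and were tested (Cdk1, Cenpa and Aurka), with 0 higher and 0 lower (also 0 and 0 at an unadjusted p under 0.05, limma), and 12 never reached 1 TPM in any library. Mki67, a marker of cycling cells, was at 0.07 to 0.26 TPM in controls and 0.05 to 0.21 TPM in SAP. Cdk1 was at 0.59 to 2.14 TPM and 0.60 to 1.66 TPM, and its log2 difference of -0.09 changed sign after rescaling (0.12).

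**Figure D4:**
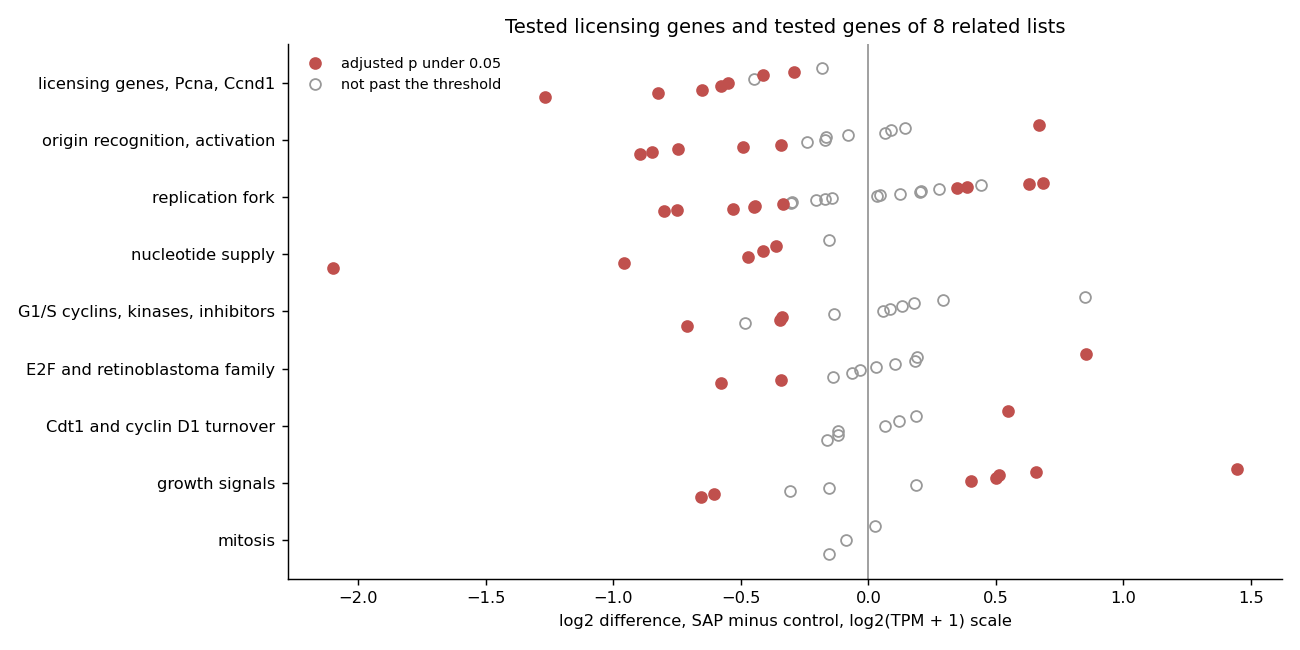
Log2 difference, SAP minus control, on the log2(TPM + 1) scale (horizontal axis) for each tested licensing gene and each tested gene of 8 related lists (rows; the vertical spread within a row only separates points). Filled points are past the adjusted threshold of 0.05 and open points are not; Tk1 (-2.10) and Egfr (1.45) mark the ends.

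Some markers of liver cells differed between the groups. The counts of called markers stand beside 25% of all tested genes lower and 19.5% higher. Hepatocyte markers were high throughout, as the label liver asks, with 5 of 8 lower and 1 higher (summed 78016 to 89406 TPM in controls, 36419 to 50184 in SAP). Most of that sum was Alb, which averaged 65030 TPM in controls and 27670 TPM in SAP. After rescaling Alb, Ttr, Serpina1c and Cps1 stayed lower. Apoa1 (0.62), Apob (0.52), Hnf4a (0.57) and Asgr1 (0.19, from -0.20 as deposited) were higher there, beside 52.5% of all genes. Erythroid markers had 5 of 6 tested lower (summed 616 to 5301 TPM in controls and 353 to 727 in SAP). Of 8 Kupffer cell markers 3 were lower and 0 higher, also 0 at an unadjusted p (summed 230 to 342 and 170 to 381 TPM). These 3 (Clec4f, Timd4 and Vsig4) were not past the threshold after rescaling (limma adjusted p 0.112 to 0.167). Nor were they in the high Xist libraries alone (limma adjusted p 0.537 to 0.767). Adgre1 was higher in both, at 0.77 (limma adjusted p = 0.00407) and 0.84 (limma adjusted p = 0.0377). All 3 tested neutrophil markers were higher (summed 4.88 to 18.8 and 35.3 to 108 TPM), and 5 were below the filter. Of 4 tested monocyte markers 3 were higher and 1 lower (summed 42.1 to 62.3 and 60.3 to 85.4 TPM). The other 2 were below the filter. Retnlg, Itgam and Fcgr1, at most 0.9, 0.52 and 1.15 TPM in controls, entered the test through their SAP values. In SAP the neutrophil markers S100a8 and S100a9 averaged 25.8 and 46.8 TPM, and each untested one at most 0.662 TPM. Lymphocyte markers summed to 2.67 to 4.88 and 2.60 to 7.03 TPM, and 7 of 10 never reached 1 TPM. The 1 tested, Gzma, was higher (0.87, limma adjusted p = 0.00595) and entered the test through its SAP values. No gene of these lists was at 0 in all libraries. The part of these cells in the differences of Mcm2 to Mcm7, Pcna and Cdt1 was not tested, and in bulk liver fewer cells of a type and less RNA per cell cannot be told apart.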

How the data were processed

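The authors deposited 1 table with 12 sample columns and a gene symbol. Its values were read as TPM as deposited; no header or label names the unit, and it was inferred from near-equal column sums (993322 to 995734 over 55367 symbols), 2 decimals and the lack of a shared step between values. edgeR is named, without a role, per the submitters' processing notes. The aligner, build, annotation and strand handling are named neither there nor in the header. Where a symbol was repeated, the row with the highest median was kept. limma 3.58.1 in R 4.3.3 was fitted with a trend to log2(TPM + 1), with the group as the only term, for the 11335 genes at 1 TPM or more in 6 or more of 12 libraries. Two-sided p-values were Benjamini-Hochberg adjusted, and 0.05 was the threshold. The 10 genes and all lists were chosen with earlier results of these data known.

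Named were the 10 genes, from each of 8 lists the 2 tested genes with the smallest adjusted p, and the 5 genes most like Mcm2 to Mcm7 and the 5 most like Ccnd1; every other list gene in the text was named after its values were seen. Alternatives changed the scaling, filter, pseudocount (0.1), variance model, row choice and libraries. Beside the 8 lists, 11 lists of cell type markers were summed. Their counts of called genes stand beside 25% of all tested genes lower and 19.5% higher. The other marker lists summed, in controls and SAP, to 231 to 273 and 236 to 280 TPM (plasma cell, 2 of 3 tested lower and 1 higher), 107 to 147 and 118 to 171 TPM (sinusoidal endothelium, 3 of 8 higher), 108 to 133 and 112 to 145 TPM (stellate cell, 4 of 7 higher and 1 lower), 14.5 to 29.7 and 15.9 to 41.1 TPM (cholangiocyte, none of 2 called), and 42.1 to 68.7 and 11.8 to 19.4 TPM (pancreatic acinar, the 1 tested gene, Cela1, lower). Most of the plasma cell sum was Sdc1 (mean 152 TPM in controls, 86.3 in SAP) and Xbp1 (95.9 and 172 TPM). The other plasma cell markers were at most 1.99 TPM in any library. Cela1 (52.9 and 15.3 TPM) made up most of the pancreatic acinar sum, and the other acinar markers were at most 4.54 TPM. Tested on simulated data (SAP against control, 11335 genes), the fit called 50 of 67 genes given a log2 change of 0.5. It called 63 of 67 given 1 and 64 of 66 given 2, and made 13 false calls. The simulation drew independent normal values with the control SD in both groups. It held no acute-phase shift and no low Xist libraries, so its false calls do not measure their effect. Gene models are GENCODE M21 on GRCm38 and promoters are RefSeq on GRCm38.p6. Figures used matplotlib 3.10.9.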

Additional observations from a re-analysis of the deposited data

Results flagged for a closer look

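Single libraries stood apart from the other 5 of their group for 5 of 72 gene and group pairs examined with Dixon's test at 95%; chance flags about 1 in 20 groups. Control 3 was the high library for Mcm6 (5.18 TPM, others 1.41 to 2.54) and for Cdt1 (2.83 TPM, others 1.65 to 1.83). SAP 11 was high for Cdc6 (0.33 TPM, others 0.02 to 0.12). Control 4 was low for Ambra1 (7.48 TPM, others 8.26 to 8.57), and SAP 15 was low for Egfr (33.5 TPM, others 46.3 to 48.4).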

How the results depend on the processing

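Mcm2 and Mcm6 kept direction and call under every alternative that tested them. After rescaling TPM without the acute-phase genes, Mcm3 (-0.33), Mcm7 (-0.22) and Cdt1 (-0.20) lost the call and Mcm4 (0.0473) and Pcna (0.0765) changed sign. The median of all genes was at 0.30 on that scale, and each of these genes lay below it. There 3 of the 10 genes were lower, 1283 genes in all were lower and 6095 higher, and 7 list genes were lower and 44 higher. In the high Xist libraries alone Mcm5 (-0.61), Mcm7 (-0.42), Pcna (-0.25) and Cdt1 (-0.33) lost the call and Mcm4 was at 0.0510. In that fit 3 of the 10 genes, 8 list genes and 1829 genes in all were lower. A term for the low Xist libraries ended the call of Cdt1 (-0.34) and gave one to Ccnd1 (-0.70), and quantile normalization gave one to Mcm4 (-0.20). At a mean of at least 5 TPM, which tested only 3 of the 10 genes, 2 of them and 13 list genes were lower. The share of lower among called genes was 56.2% on the deposited scale, 50.4% with TMM-like scaling, 46.8% with quantile normalization and 17.4% after rescaling.

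Leaving out each library in turn gave 7 to 8 of the 10 genes lower and 0 higher, 20 to 26 list genes lower and 12 to 17 higher, and 2537 to 3062 genes lower and 1956 to 2452 higher. The log2 differences ranged from -0.69 to -0.60 for Mcm2, -0.69 to -0.48 for Mcm3, -0.25 to -0.14 for Mcm4, -0.91 to -0.70 for Mcm5, -1.36 to -1.09 for Mcm6, -0.61 to -0.48 for Mcm7, -0.32 to -0.25 for Pcna, -0.44 to -0.33 for Cdt1 and -0.60 to -0.26 for Ccnd1.

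Further sign changes after rescaling were Ambra1 (0.18), Cenpa (0.11), Cdk1 (0.12), Umad1 (0.00512), Rbbp7 (0.13), Seh1l (0.23), Gnai3 (0.24), Dld (0.27), Fam104a (0.22) and Ube2e1 (0.0566). With quantile normalization Gnai3 (0.00680) and Dld (0.11) changed sign, and Cdk1 did in the high Xist libraries alone (0.0211), without control 3 (0.0023) and without control 5 (0.0079; -0.19 to 0.0079 over all left-out libraries). The cause of these changes was not tested. DESeq2 was not run, since the values are not counts. No paired analysis was possible because the control and SAP samples share no replicate numbers. Depth is unknown, so how far counting error limits the lowest genes cannot be given.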
